A study of Mus musculus with 8 samples.

Results

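In retinal ganglion cells (RGCs) sorted after optic nerve crush (ONC), 1538 open chromatin regions ranked highest with Ezh2 overexpression, in the middle with GFP and lowest with Ezh2-Y726D. They were chosen among 68278 regions that held a peak in all 8 ATAC-seq libraries, on chromosomes 1 to 19, out of 186387 regions in all. For each library the fold of the strongest peak in a region was turned into a percentile among all peaks of that library. A region was kept, and is called stepped below, when every Ezh2 percentile exceeded every GFP percentile and every GFP percentile exceeded both Ezh2-Y726D percentiles. The percentiles of all 3 groups therefore chose the regions, and their levels are given as a description.

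Adult C57BL/6J mice received AAV2 into the vitreous, carrying GFP as the control, Ezh2 or its mutant Ezh2-Y726D, and 2 weeks later the optic nerve was crushed in all 3 groups. RGCs were enriched 3 days after ONC as live cells positive for CD90.2 (Thy1), a surface protein that T cells carry as well, and 50000 cells entered each library. There were 3 GFP, 3 Ezh2 and 2 Ezh2-Y726D samples, and the labels do not say whether they came from separate animals, so the spread between them may be technical. Neither the virus nor the sort is restricted to RGCs: AAV2 given into the vitreous also reaches other retinal cells, and the transduced share of each library was not measured here.

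Ezh2 is the catalytic subunit of Polycomb repressive complex 2 (PRC2), which methylates histone H3 at lysine 27 and keeps developmental genes silent. Ezh2-Y726D is a catalytically dead form. ATAC-seq marks DNA that a transposase can reach, mostly promoters and enhancers, and each peak comes with a fold, its pileup height over the background around it in that library. A percentile of 80 thus means that the region outranked 80% of the peaks in that list. In a sorted population, fewer cells of a type and less accessibility per cell cannot be told apart.

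Stepped regions made up 2.25% of the regions with a peak in all lists, called shared regions below. The exact reverse order, with Ezh2-Y726D above GFP above Ezh2, held in 1440 regions (2.11%), and the other 4 orders held in 345 to 652 regions each. Taken alone, the upper part of the order (every Ezh2 above every GFP) was met by 12.8% of shared regions and the lower part (every GFP above both Ezh2-Y726D) by 20.4%. The reverse set was therefore almost as large as the stepped set.

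The median percentile of the stepped regions was 81.8, 82.2 and 81.8 in the Ezh2 samples. It was 69.2, 68.1 and 70.8 in the GFP samples and 45.9 and 47.3 in the Ezh2-Y726D samples. Over all shared regions the medians lay between 66.7 and 71.8 in the 8 libraries. Stepped regions thus sat near the common level in the GFP samples, above it with Ezh2 and below it with Ezh2-Y726D. Peaks followed the same order in width: the median peak spanned 808.5, 825.5 and 863.5 bp in the Ezh2 samples, 755, 709.5 and 805.5 bp in the GFP samples, and 557.5 and 606.5 bp in the Ezh2-Y726D samples, against 653 to 754 bp over all shared regions. The GFP and Ezh2 widths came close together, and only the Ezh2-Y726D widths fell below the shared range.

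**Figure D1:**
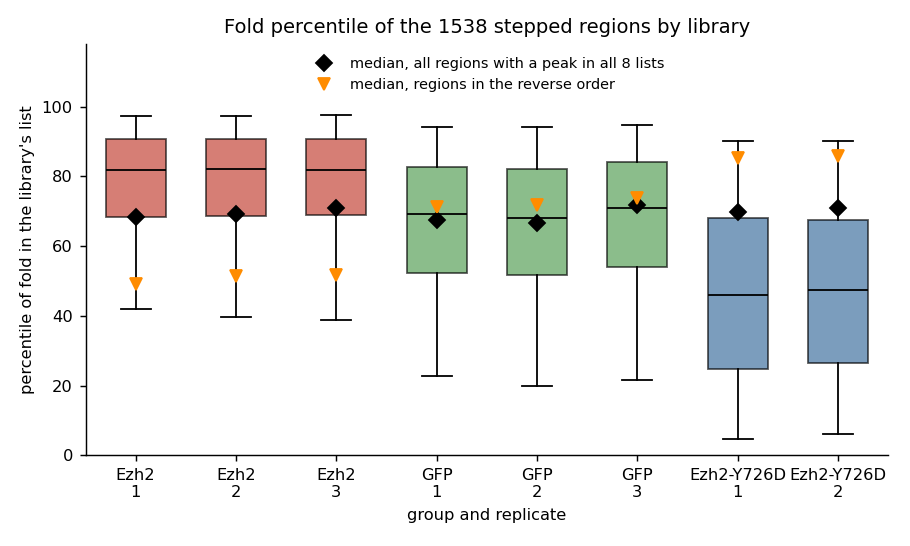
Percentile of the fold (vertical axis) of the 1538 stepped regions in each library (horizontal axis). Boxes hold the regions from the lower to the upper quartile with the median as a line, whiskers reach to 5% of regions from either end, diamonds give the median of all 68278 shared regions and triangles that of the 1440 reverse-order regions. Stepped medians were 81.8 to 82.2 with Ezh2 and 45.9 and 47.3 with Ezh2-Y726D, while the diamonds stayed between 66.7 and 71.8.

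The lower step was the larger one in most regions. Mean percentiles differed between GFP and Ezh2-Y726D by a median of 15.7 points and between Ezh2 and GFP by 10.0 points, and the lower step exceeded the upper one in 1109 regions (72.1%). In folds, the ratio of group means had a median of 1.17 for Ezh2 over GFP, 1.18 for GFP over Ezh2-Y726D and 1.40 for Ezh2 over Ezh2-Y726D, where all shared regions gave 0.992, 0.952 and 0.943. Regions of every strength took part, with 1.61% stepped in the weakest of 5 equal bins of shared regions, 3.00% in the middle bin and 1.58% in the strongest.

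Many steps were narrow. The smaller of the 2 gaps between neighbouring groups (lowest Ezh2 minus highest GFP, and lowest GFP minus highest Ezh2-Y726D) had a median of 2.06 percentile points. It was under 1 point in 510 regions (33.2%) and over 10 points in 89 (5.79%). Ranking by the fold itself, without turning it into a percentile, kept the full order in 742 of the 1538 regions (48.2%). The whole set shrank to 1008 regions when all lists were given equal length. The folds of the libraries are on different backgrounds, so the percentile and the fold need not give the same order.

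In a limma fit of fold ranks over all shared regions (Benjamini-Hochberg adjusted p under 0.05), Ezh2 was higher than GFP in 136 stepped regions (8.84%) against 1.61% of all shared regions. GFP was higher than Ezh2-Y726D in 451 (29.3%) against 4.70%, and Ezh2 was higher than Ezh2-Y726D in 1204 (78.3%) against 7.09%. The first count was 85 (5.53%) with a replicate block, and that fit called 723 of all 68278 shared regions. Without 1 GFP or Ezh2 sample it was 39 to 81 of the regions stepped in the samples that remained (1.58 to 3.31%). Those fits called 265 to 603 of the 68621 to 71042 regions with a peak in all remaining lists. Both steps were called in 62 of all 68278 shared regions, each of them stepped, and 334 stepped regions were called in none of the 3 comparisons. These comparisons used the values that chose the regions, and the rule keeps only groups that do not overlap. The shares of stepped regions are thus raised by the choice itself and support nothing further.

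The order was then read in samples whose levels had no part in the choice, although a peak in all 8 lists, these samples included, was still required. With 1 sample of each group held out in turn (18 combinations), a median of 4995.5 regions was chosen on the other 5 samples. Of these, 50.2% (46.8 to 53.5% over the combinations) showed Ezh2 above GFP above Ezh2-Y726D in the 3 held-out samples. The same was true of 20.0% of all shared regions (17.9 to 22.9%). Each single step held more often than the full order, with the held-out Ezh2 sample above GFP in a median of 72.9% and GFP above Ezh2-Y726D in 74.4% of chosen regions, against 53.7% and 47.3% of all shared regions. The combinations share samples, so their range is no error, and about 1 in 2 regions chosen on 5 samples lost the order in the other 3.

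Members were not concentrated at promoters. A gene end lay within 1 kb of 400 stepped regions (26.0%, 95% exact binomial interval 23.8 to 28.3%, counting error only), against 26.4% of shared regions and 28.5% of reverse-order regions. A start site lay within 1 kb of 277 (18.01% against 18.67%), 773 lay inside a gene away from its ends (50.3% against 48.0%) and 365 lay between genes (23.7% against 25.6%). Stepped regions were found on all 19 chromosomes, at 1.82 to 2.82% of the shared regions of each. Another stepped region lay within 50 kb of 184 (11.96%), and a region of the reverse order lay as near to 187 (12.16%), so the stepped regions had neighbours of either kind about equally often.

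The widest separation was found inside Pigl, which encodes an enzyme of GPI anchor synthesis, at chr11:62466415-62467220 (GRCm38; 7974 bp from a gene end). Its percentiles were 93.5, 93.9 and 93.7 in the Ezh2 samples, 66.0, 64.5 and 61.0 in the GFP samples, and 13.9 and 12.9 in the Ezh2-Y726D samples. Folds followed, at 10.4, 10.3 and 9.69 with Ezh2, 5.77, 6.01 and 5.47 with GFP, and 3.53 and 3.32 with Ezh2-Y726D. The folds of the groups did not overlap, while the rule itself required this of the percentiles. The smaller gap was 27.5 points, the largest of all stepped regions.

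Next came a region between genes at chr15:39172601-39173548, whose nearest coding gene was Rims2, a presynaptic active zone protein, at 24738 bp. It stood at 90.6, 88.3 and 90.0 with Ezh2, 59.7, 62.7 and 60.3 with GFP, and 33.1 and 35.4 with Ezh2-Y726D. A region inside Dnm3, which encodes a dynamin of endocytosis, had 77.3, 78.4 and 83.9, then 60.1, 50.5 and 57.5, then 18.9 and 16.1 in the same order of groups. The rule required the percentiles of the groups to be apart in both, and their folds did not overlap either. Inside Ank2, the gene of the neuronal scaffold ankyrin-B, the values were 82.1, 85.1 and 78.4 with Ezh2, 57.5, 46.7 and 58.7 with GFP, and 30.3 and 26.5 with Ezh2-Y726D. Lgr5, a receptor for R-spondins in Wnt signalling, held a weaker region at 52.2, 53.1 and 71.6, then 31.1, 32.5 and 36.0, then 5.68 and 13.8. The remaining 7 of the 12 widest lay in 1700030F04Rik, Ece1, Lrmda, Mllt3 and Ldb2 and between genes, 14864 bp from Mturn and, farther off, 147064 bp from the nearest coding gene Fbxw7, with smaller gaps of 16.6 to 20.2 points. None of the 12 lay within 1 kb of a gene end. Of the 12, only the regions near Rims2 and in Ece1 were still shared with the q threshold, and only that in Mllt3 with the coverage rule. With equal lists, those near Rims2 and in 1700030F04Rik, Ece1, Mllt3 and Ank2 were.

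**Figure D2:**
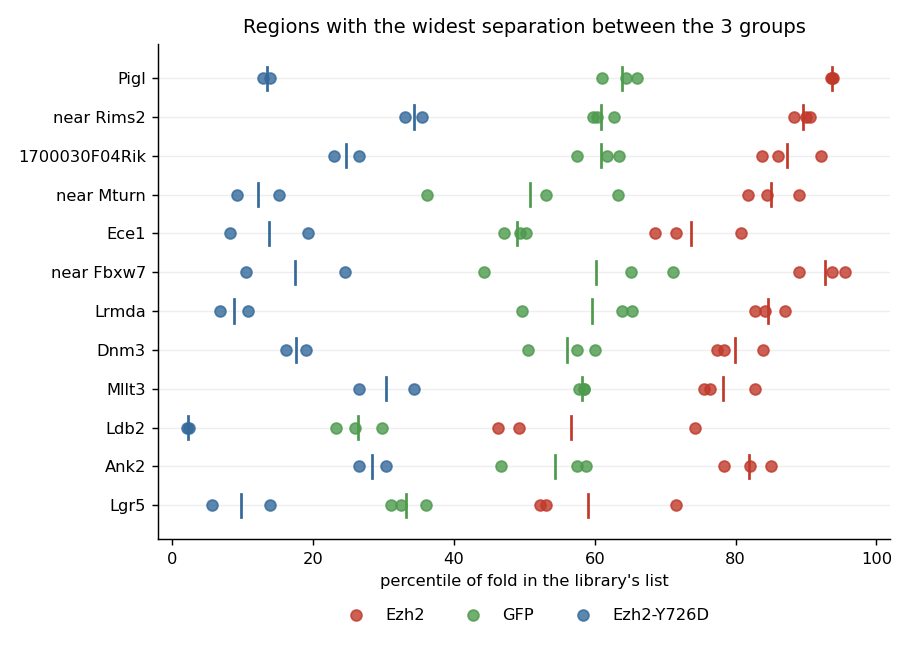
Percentile of the fold (horizontal axis) in every library for the 12 stepped regions with the widest separation, named by the gene around them or the nearest coding gene at any distance. Each point is a library and each short line a group mean. As the rule requires, Ezh2-Y726D points lie on the left of every row and Ezh2 points on the right, from 93.5 to 93.9 in Pigl.

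The largest differences between the Ezh2 and Ezh2-Y726D means came from regions that lay further below GFP with the mutant than above it with Ezh2. The largest, 88.8 points, was at chr11:52299445-52300206, 16062 bp from Tcf7, a Wnt pathway transcription factor that is prominent in T cells. Its percentiles were 95.8, 96.0 and 96.7 with Ezh2, 73.4, 90.4 and 90.0 with GFP, and 4.63 and 10.0 with Ezh2-Y726D. Gnptab, which encodes a subunit of the enzyme that tags lysosomal proteins, had 90.0, 91.9 and 93.1, then 80.4, 87.0 and 86.7, then 9.23 and 10.0 within its body. In both regions the GFP values lay close to the Ezh2 values and far from both Ezh2-Y726D values. A region in Psd3, a guanine exchange factor gene, showed the same shape with group means of 98.0 ± 1.0 (SD, n = 3), 85.6 ± 9.8 (n = 3) and 16.5 ± 9.1 (n = 2). The regions near Tcf7 and in Gnptab and Psd3 were not shared with the q threshold, the coverage rule or equal lists.

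At the edge of the rule, a region in Tmem178b was kept with a gap of 0.00074 points between the lowest Ezh2 and the highest GFP value, and one near Ppm1a with 0.00091 points between GFP and Ezh2-Y726D. Just outside lay a region at the Cwf19l1 start site, whose lowest Ezh2 and highest GFP values missed the order by less than either of these gaps, and one at chr3:5860253-5860910, the strongest peak of 6 lists, where the Ezh2 and GFP percentiles tied at 100.

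Regions at genes of several retinal cell types were stepped more often than the average shared region, on small counts. Lists of marker genes were compared by the share of their shared regions, inside the gene or within 1 kb of it, that were stepped, beside 2.25% over all shared regions. The lists were chosen with results of these data known, so the shares carry no test. Müller glia and astrocyte genes had 6 stepped of 48 shared regions (12.5%), amacrine cell genes 6 of 62 (9.68%), rod and cone genes 6 of 70 (8.57%) and bipolar cell genes 6 of 76 (7.89%). RGC genes had 2 of 77 (2.60%), close to the share of all regions. By genes with a shared region, 6 of 21 Müller glia, 3 of 19 amacrine and 6 of 23 rod and cone genes had a stepped one. So had 3 of 17 bipolar and 2 of 20 RGC genes. Pax6 alone held 3 of the amacrine regions and Prkca 4 of the bipolar ones. In the reverse order these lists held 2, 0, 0, 0 and 0 regions. The median difference between the Ezh2 and GFP means was also taken over every shared region of a list. It was 5.27 percentile points for Müller glia, 3.82 for rods and cones, 4.69 for RGCs, 3.09 for amacrine and 1.64 for bipolar cells. All shared regions gave 0.53. Between the GFP and Ezh2-Y726D means the median was 1.49, 0.65, 1.92, 1.78 and 1.10 points in the same order of lists. All shared regions gave −0.28 there.

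**Figure D3:**
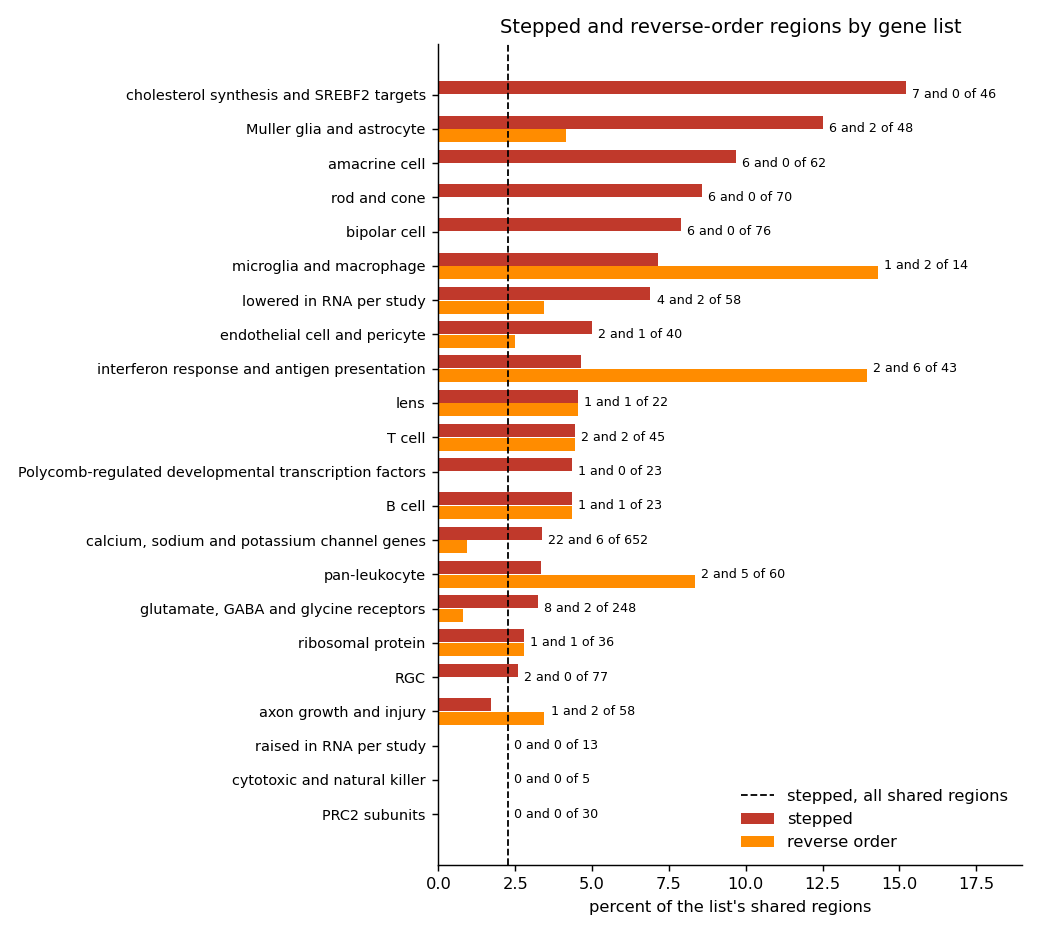
Percent of the shared regions of each gene list (horizontal axis) that were stepped or in the reverse order, with the numbers of both and of shared regions beside the bars. The dashed line marks the 2.25% of all shared regions that were stepped. Cholesterol genes, chosen after the members were seen, reach 15.2% and Müller glia genes 12.5%, while PRC2 subunit genes have 0 stepped of 30 regions.

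Among Müller glia genes, Gfap, which encodes the intermediate filament of reactive glia, had the widest step. The region lay inside the gene at chr11:102892901-102893642, with percentiles of 84.1, 83.0 and 83.9 in the Ezh2 samples, 59.6, 43.6 and 40.8 in the GFP samples and 13.1 and 34.2 in the Ezh2-Y726D samples. Its folds were 8.11, 7.75 and 7.48 with Ezh2, 5.32, 4.69 and 4.24 with GFP and 3.48 and 4.15 with Ezh2-Y726D. The Ezh2 samples were tight and stood apart, while GFP and Ezh2-Y726D came close in fold. The Gfap region was not shared with the q threshold or the coverage rule. At the start site of Slc1a3, the glial glutamate transporter GLAST, group means were 63.2 ± 3.5 (SD, n = 3) with Ezh2, 46.4 ± 6.5 (n = 3) with GFP and 24.9 ± 1.8 (n = 2) with Ezh2-Y726D. The region at the start of Kcnj10, the potassium channel Kir4.1, was strong throughout, with 94.1 ± 1.1, 87.5 ± 2.0 and 81.4 ± 4.6. Its GFP and Ezh2-Y726D values were only 0.52 points apart at their nearest, and their folds overlapped. Another region at Kcnj10 was in the reverse order. Aqp4 (the water channel aquaporin 4), Car2 (a carbonic anhydrase) and Hes1 (a Notch target) held the other 3 regions. That of Hes1 was among the weakest of all lists, with means of 7.1, 2.1 and 0.51.

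Pax6, the eye master regulator that stays on in amacrine cells and RGCs, was stepped in 3 of its 6 shared regions, among the genes with 3 or more stepped regions the highest share. They covered an upstream start site, an internal start site and the 3′ end. At the internal one, chr2:105681954-105683057, percentiles were 24.3, 28.1 and 21.7 with Ezh2, 11.7, 7.98 and 10.9 with GFP and 3.86 and 2.89 with Ezh2-Y726D. The same low level and order were seen at the upstream start (means of 20.1, 8.4 and 3.1) and at the 3′ end (21.8, 6.0 and 2.2). All 3 Pax6 regions were thus among the weaker peaks of every library. Slc6a9, the glycine transporter GlyT1, had 2 stepped regions, of which the stronger one reached 71.1 ± 1.5 with Ezh2, 50.7 ± 8.4 with GFP and 30.6 ± 12.2 with Ezh2-Y726D. Gad1, an enzyme of GABA synthesis, had 1, with means of 69.3, 53.2 and 43.0.

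Prkca, which encodes protein kinase C alpha and marks rod bipolar cells, held 4 stepped regions of 29 shared, a number matched only by Ppm1h, a protein phosphatase gene with 4 of 24. The strongest Prkca region had 68.8, 57.4 and 66.6 with Ezh2, 41.1, 44.2 and 42.1 with GFP and 24.9 and 36.2 with Ezh2-Y726D. In the other 3, the Ezh2 means were 24.0 to 38.5 and the Ezh2-Y726D means 2.1 to 7.8. None of the 4 touched a gene end. Cabp5, a calcium-binding protein of bipolar cells, was stepped at its start site (means of 89.1, 85.2 and 79.2), and Grik1, a kainate receptor of OFF bipolar cells, near a gene end (75.8, 69.1 and 63.8). At both, the folds of Ezh2 and GFP overlapped.

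Photoreceptor members included Sag (rod arrestin), Cngb1 (the beta subunit of the rod cyclic nucleotide-gated channel) and Rom1 (a disc rim protein) at their start sites, and Rp1, Aipl1 and Pde6c elsewhere. Cngb1 showed the clearest order of the 3 start sites, at 73.5, 73.5 and 77.7 with Ezh2, 60.1, 65.9 and 66.0 with GFP and 54.9 and 40.9 with Ezh2-Y726D. At Sag the values were 73.5, 75.7 and 80.5, then 72.1, 71.2 and 68.5, then 63.6 and 63.3. The rule keeps the percentiles of the groups apart at both, but Ezh2 and GFP were 1.46 points apart at Sag. Folds of GFP and Ezh2-Y726D overlapped at both, with a lowest GFP fold of 5.38 against 5.39 at Cngb1. At Sag these folds were 6.03 and 6.1. Neighbouring groups overlapped in fold at Rom1, Rp1, Aipl1 and Pde6c as well. Rp1 was the strongest photoreceptor member, with means of 98.0, 96.8 and 90.6.

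Both RGC members were neuronal regulators. At the start site of Pou4f1 (Brn3a), a transcription factor that defines most RGCs, chr14:104467323-104468514 had percentiles of 81.6, 78.3 and 82.7 with Ezh2, 63.0, 72.8 and 71.0 with GFP and 34.2 and 49.3 with Ezh2-Y726D. Folds were 7.77, 7.11 and 7.33, then 5.54, 6.78 and 6.28, then 4.32 and 4.97, also without overlap. Rbfox3 (NeuN), a splicing factor of mature neurons, had means of 81.6 ± 3.3, 72.3 ± 5.4 and 55.8 ± 5.5 in a region inside the gene. Its Ezh2 and GFP folds overlapped. Of 25 RGC marker genes, 23 had a peak at a gene end in each Ezh2 sample, 20 or 21 in the GFP samples and 21 or 22 in the Ezh2-Y726D samples. Rod and cone genes had such a peak in 20 to 23 of 25 and Müller glia genes in 18 or 19 of 22 in all libraries, so chromatin open at markers of other retinal cells was present in every group, and its part in these steps was not tested.

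**Figure D4:**
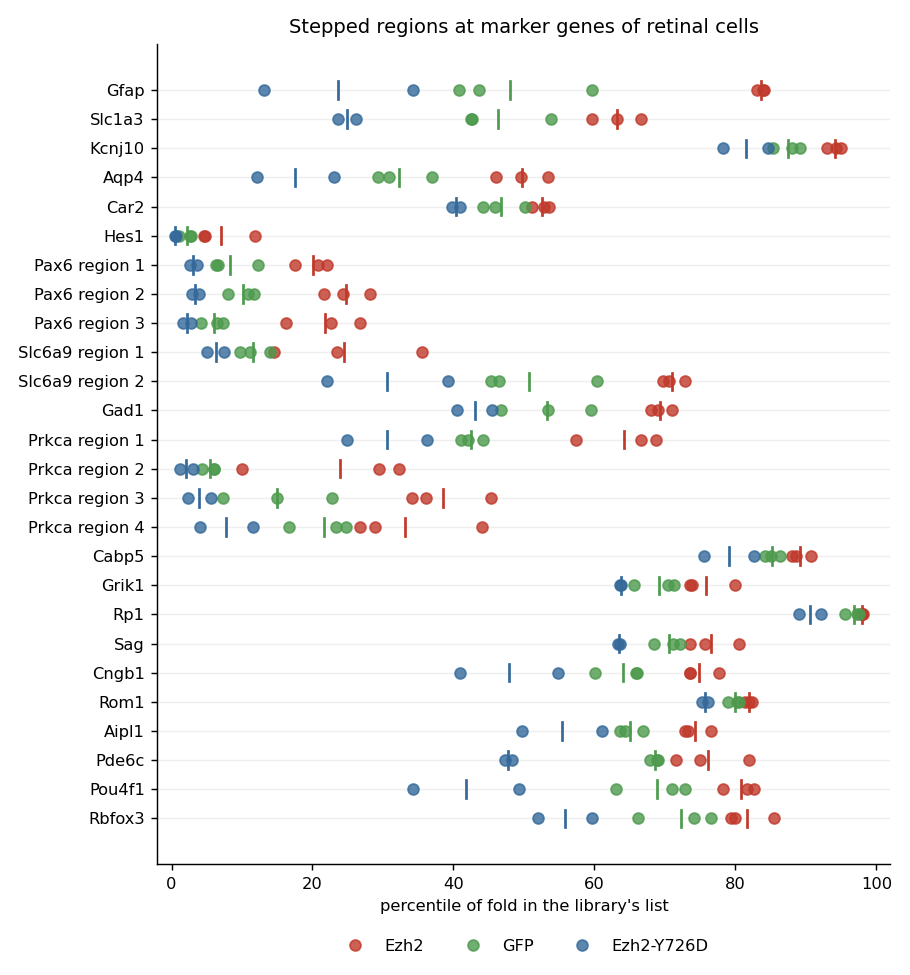
Percentile of the fold (horizontal axis) in every library at the 26 stepped regions of marker genes of Müller glia, amacrine, bipolar, rod and cone, and retinal ganglion cells, from top to bottom. Points are libraries and short lines group means. Gfap has the widest step, with all Ezh2 samples between 83.0 and 84.1, and the Pax6 regions lie at the low end of every library.

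Promoter windows of 7 members show the sequence at start sites where the step was seen. They come from RefSeq for GRCm38.p6 and run from 250 bases before the start site to 50 bases from it on, in the 5′ to 3′ direction of the gene. Sag lies at chr1:87803430-87803729 (plus strand), Cngb1 at chr8:95306536-95306835 (minus), Cabp5 at chr7:13397905-13398204 (plus), Kcnj10 at chr1:172340960-172341259 (plus), the internal Pax6 start at chr2:105682213-105682512 (plus), Pou4f1 at chr14:104467950-104468249 (minus) and Srebf2 at chr15:82147019-82147318 (plus). Capitals mark matches on either strand to the CRX/OTX letters TAATCC, the SOX letters ACAAAG, the RUNX letters TGTGGT or the sterol response letters TCACNCCAC.
Sag: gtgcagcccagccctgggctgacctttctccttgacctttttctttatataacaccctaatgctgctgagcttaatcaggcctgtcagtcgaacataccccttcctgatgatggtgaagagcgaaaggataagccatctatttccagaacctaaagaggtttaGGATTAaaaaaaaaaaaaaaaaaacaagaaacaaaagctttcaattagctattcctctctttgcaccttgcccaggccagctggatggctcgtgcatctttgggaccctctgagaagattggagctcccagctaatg
Cngb1: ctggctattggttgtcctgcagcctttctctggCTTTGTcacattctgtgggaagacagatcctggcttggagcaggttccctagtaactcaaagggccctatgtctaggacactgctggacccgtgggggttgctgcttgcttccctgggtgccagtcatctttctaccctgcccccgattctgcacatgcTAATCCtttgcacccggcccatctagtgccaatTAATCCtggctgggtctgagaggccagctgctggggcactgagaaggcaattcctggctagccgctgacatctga
Cabp5: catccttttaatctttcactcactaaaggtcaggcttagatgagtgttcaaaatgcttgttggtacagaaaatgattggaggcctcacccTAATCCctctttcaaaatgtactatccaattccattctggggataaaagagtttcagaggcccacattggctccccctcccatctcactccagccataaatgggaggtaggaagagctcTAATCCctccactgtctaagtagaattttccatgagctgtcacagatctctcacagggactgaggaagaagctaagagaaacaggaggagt
Kcnj10: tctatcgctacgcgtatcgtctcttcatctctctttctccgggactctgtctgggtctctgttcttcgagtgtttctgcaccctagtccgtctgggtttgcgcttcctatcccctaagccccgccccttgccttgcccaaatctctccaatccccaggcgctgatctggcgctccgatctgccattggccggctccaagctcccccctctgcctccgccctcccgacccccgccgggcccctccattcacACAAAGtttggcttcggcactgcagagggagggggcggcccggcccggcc
Pax6: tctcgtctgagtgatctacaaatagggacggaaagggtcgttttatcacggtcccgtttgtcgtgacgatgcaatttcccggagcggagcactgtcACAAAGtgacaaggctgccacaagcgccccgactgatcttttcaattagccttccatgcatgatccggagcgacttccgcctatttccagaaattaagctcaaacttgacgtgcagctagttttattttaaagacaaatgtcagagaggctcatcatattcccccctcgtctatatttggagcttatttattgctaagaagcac
Pou4f1: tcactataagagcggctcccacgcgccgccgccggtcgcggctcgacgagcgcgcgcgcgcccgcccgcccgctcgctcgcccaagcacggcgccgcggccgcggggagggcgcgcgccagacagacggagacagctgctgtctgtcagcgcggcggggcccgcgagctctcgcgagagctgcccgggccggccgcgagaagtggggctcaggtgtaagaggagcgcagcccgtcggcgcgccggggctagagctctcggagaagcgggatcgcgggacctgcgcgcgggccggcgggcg
Srebf2: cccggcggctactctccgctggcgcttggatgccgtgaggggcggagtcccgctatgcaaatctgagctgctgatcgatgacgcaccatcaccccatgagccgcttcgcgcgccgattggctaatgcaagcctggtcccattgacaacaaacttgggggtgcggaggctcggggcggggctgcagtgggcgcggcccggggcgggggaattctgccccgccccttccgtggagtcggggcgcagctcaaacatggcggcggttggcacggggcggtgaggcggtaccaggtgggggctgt

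The photoreceptor and bipolar windows of Sag, Cngb1 and Cabp5 each held the CRX/OTX letters, with 2 matches in Cngb1 and in Cabp5, and Cngb1, Kcnj10 and Pax6 held the SOX letters. Pou4f1 and Srebf2 held none of the 4, and neither did the window of the photoreceptor gene Rom1, which is not printed. Over the 297 promoter windows that fell in stepped regions, TAATCC was found in 7.41%, against 5.35% of the 13860 windows in shared regions and 7.07% of all 31363. ACAAAG was found in 16.8%, 12.3% and 18.6%, and TGTGGT in 14.8%, 11.6% and 16.7%. TCACNCCAC was rare, with 1.68%, 1.13% and 1.26%. The GC box GGGCGG was in 58.6% of stepped windows and 65.9% of shared ones, and the median GC content was 60.3% against 62.3%. A match shows only that the letters are present, and 20 motifs were searched, several of them added after the members were seen.

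Genes of cholesterol synthesis and other SREBF2 targets, a list written after stepped start sites had been seen, had 7 stepped of 46 shared regions (15.2%) in 7 of 23 genes, and 0 in the reverse order. The list is therefore an illustration and not a test. SREBF2 is the transcription factor that turns these genes on when sterols are low. Its own start site had means of 88.6 ± 1.0 with Ezh2, 85.5 ± 2.9 with GFP and 77.4 ± 2.9 with Ezh2-Y726D. The widest steps were at Msmo1, a methylsterol oxidase, with percentiles of 93.7, 92.4 and 93.6, then 68.6, 82.6 and 70.6, then 54.2 and 39.8, and at Sc5d, a sterol desaturase, with 74.5, 67.9 and 67.2, then 44.3, 41.4 and 39.4, then 37.0 and 32.4. The Ezh2 samples stood apart at both, and at Sc5d the GFP and Ezh2-Y726D samples were 2.40 points apart. Steps at Acat2, Mvd, Fdft1 and Tmem97 were small on strong peaks: at Tmem97 the means were 99.1, 98.6 and 97.7. Folds overlapped between neighbouring groups at every stepped gene of this list except Msmo1. At Srebf2 they were 9.08, 8.91 and 8.08 with Ezh2 and 8.33, 8.98 and 7.58 with GFP.

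Genes of neuronal excitability were also looked at after the fact. Calcium, sodium and potassium channel genes had 22 stepped of 652 shared regions (3.37%) and 6 in the reverse order (0.92%), beside 2.25% and 2.11% of all shared regions. Glutamate, GABA and glycine receptor genes had 8 of 248 (3.23%) and 2 in the reverse order (0.81%). In RNA the paper reports many channel and receptor genes lowered by Ezh2 and most of them raised by Ezh2-Y726D. The rule fixes the opposite order for every stepped region, and most regions of these lists were not stepped. The lists were not limited to the genes the paper names, and the relation was not tested. Among the channel genes, Kcnma1, the large-conductance potassium channel, held 3 regions and Cacna1d, a calcium channel of the L type, 2. In Kcnd2, an A-type potassium channel gene, the Ezh2 samples had 67.1, 67.9 and 72.2, the GFP samples 53.6, 28.7 and 17.8 and the Ezh2-Y726D samples 15.7 and 15.1. GFP was widely spread there and close to the mutant in 1 sample. Grin1, the obligatory NMDA receptor subunit, had means of 71.4 ± 13.3, 39.9 ± 11.4 and 17.9 ± 12.2.

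At leukocyte genes, regions of both orders were found in small numbers. T cell genes had 2 stepped of 45 shared regions (4.44%), microglial genes 1 of 14 (7.14%), pan-leukocyte genes 2 of 60 (3.33%) and cytotoxic genes 0 of 5, beside 2.25% of all shared regions. In the reverse order the same lists held 2 (4.44%), 2 (14.3%), 5 (8.33%) and 0 regions, beside 2.11%. The 5 genes with a stepped region were Themis, Cd6, P2ry12, Runx3 and Fyb. The number was 12 when regions were ranked by −log10 p and 2 with lists of equal length. At the start site of Themis, a regulator of T cell selection, percentiles were 88.6, 88.6 and 85.2 with Ezh2, 82.5, 72.3 and 78.7 with GFP and 22.9 and 15.1 with Ezh2-Y726D. Inside Cd6, a T cell surface receptor, they were 85.8, 81.1 and 86.8, then 68.4, 64.3 and 70.8, then 54.4 and 57.6. The gap at Themis lay almost wholly between GFP and Ezh2-Y726D, while both steps were clear at Cd6. In Runx3, a transcription factor of cytotoxic T cells, the Ezh2-Y726D samples differed widely, at 4.63 and 55.2, below GFP means of 64.5 ± 1.4 and Ezh2 means of 73.5 ± 2.0. P2ry12, the microglial ADP receptor, was barely inside the rule, with 0.057 points between GFP and Ezh2-Y726D. Blnk, an adaptor of B cell receptor signalling, had means of 85.9 ± 3.9, 63.8 ± 10.9 and 21.1 ± 7.7 in its only stepped region. Neither this region nor that of Themis was shared with the q threshold, the coverage rule or equal lists.

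Markers of these cells differed between the libraries as a whole. Of 26 T cell genes, 25 had a peak within 1 kb of a gene end in each Ezh2 sample, 22 to 25 in the GFP samples and 11 and 13 in the Ezh2-Y726D samples. Pan-leukocyte genes had one in 28 or 29, 25 to 28, and 10 and 13 of 29, cytotoxic and natural killer genes in 16 to 18, 11 to 14, and 4 and 5 of 19, and microglial genes in 18 to 20, 15 to 20, and 7 of 24. The summed fold of the T cell list was 134 to 153 with Ezh2, 125 to 139 with GFP and 60.8 to 71.2 with Ezh2-Y726D. Cd28, Cd8a and Zap70 were among the T cell genes without such a peak in either mutant sample. The rule keeps only regions with a peak in both Ezh2-Y726D samples, so a region without a peak there could not become a member, and the part of leukocyte chromatin in the stepped regions was not tested. Interferon and antigen presentation genes had 2 stepped of 43 shared regions (Mx1 and Cd74, 4.65% against 2.25% of all shared regions). They held 6 in the reverse order (13.95% against 2.11%).

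**Figure D5:**
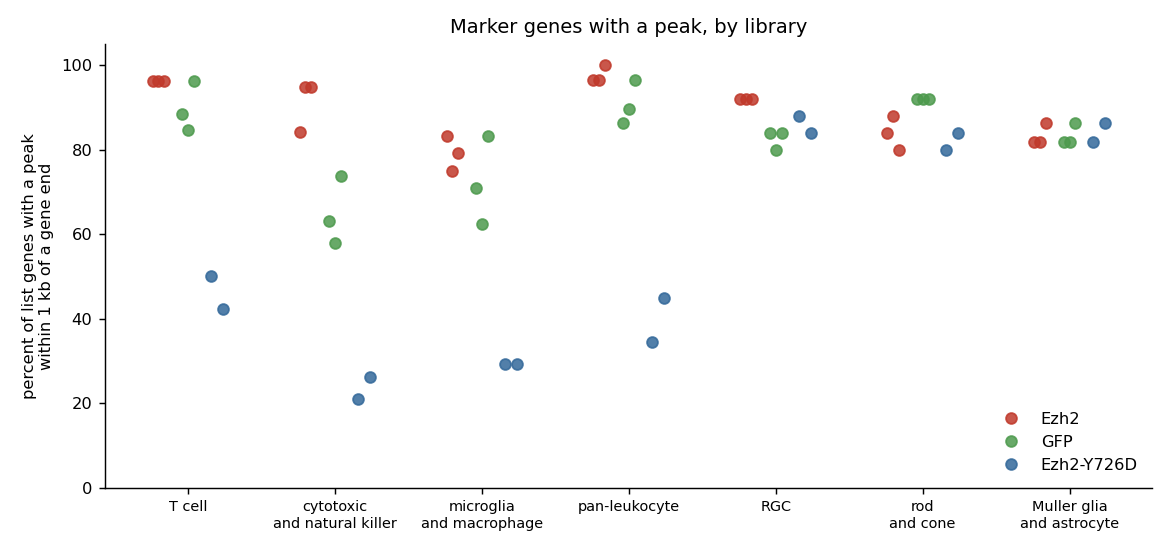
Percent of the genes of 7 marker lists that had a peak within 1 kb of a gene end (vertical axis), with 1 point per library. The leukocyte lists on the left are lowest in both Ezh2-Y726D samples (11 and 13 of 26 T cell genes), while the RGC list has 20 to 23 of 25 genes with a peak in all libraries.

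Counts at genes of PRC2 and its targets were too small to set them apart from other regions. None of the 30 shared regions at genes of PRC2 subunits was stepped. Of 36 developmental transcription factors that are classic Polycomb targets, 16 had a shared region and 1, Tbx3, a limb and heart patterning factor, had a stepped one, 1 of 23 regions in all (4.35%, against 2.25% of all shared regions), with means of 87.3, 83.9 and 76.0. Genes that the study had picked as raised in RNA by Ezh2 had 0 stepped of 13 shared regions. Those picked as lowered had 4 of 58 (6.90%), 3 of them in Tnr, which encodes the growth inhibitory matrix protein tenascin-R, and 1 in Lingo3. The paper found RNA of both genes lowered by Ezh2 and not by Ezh2-Y726D. The rule fixes the other direction for every stepped region, highest with Ezh2 and lowest with the mutant. Tnr had 3 stepped of 22 shared regions, and the relation to RNA was not tested. These 2 lists were chosen by the study on RNA of the same conditions and are not independent of the groups. In the Tnr region with the largest smaller gap the means were 47.7 ± 6.1 (SD, n = 3) with Ezh2, 30.5 ± 7.7 (n = 3) with GFP and 11.6 ± 0.91 (n = 2) with Ezh2-Y726D. At Lingo3 the means were 40.6 ± 0.75, 33.7 ± 2.7 and 25.4 ± 2.4. The lowered list also held 2 regions in the reverse order (3.45%), and over all its 58 shared regions the median differences were 1.03 points for Ezh2 minus GFP and −2.35 points for GFP minus Ezh2-Y726D.

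Among axon growth and injury genes 1 of 58 regions was stepped (1.72%), below the share of all shared regions. It lay at the start site of Klf4, a factor that holds back axon growth in RGCs, with percentiles of 23.4, 21.4 and 20.2 with Ezh2, 16.0, 18.3 and 16.4 with GFP and 11.5 and 12.1 with Ezh2-Y726D. Its folds overlapped, at 3.74, 3.54 and 3.35 with Ezh2 and 3.37, 3.67 and 3.36 with GFP. Endothelial and pericyte genes had 2 of 40 (5%, Flt1 and Pdgfrb) and lens genes 1 of 22 (4.55%, Bfsp2). Ribosomal protein genes had 1 of 36 (2.78%), a region at the start of B3galt4 close to Rps18. All shared regions gave 2.25%. Of 15388 protein-coding genes with a shared region, 976 had a stepped one, 89 had 2 or more and 17 had 3 or more. Among the 17 were the synaptic scaffolds Dlg2 (3 of 56 shared regions over 1973 kb) and Shank2 (3 of 36), each with 1 reverse-order region. The neuronal adhesion gene Dscaml1 (3 of 26) was another, as were Mad1l1, Crtc3, Setbp1 and Ctif. Of the 89 genes, 22 also held a region of the reverse order.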

How the data were processed

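ATAC-seq peaks had been called by the authors in each of the 8 samples separately and deposited as 1 list per sample. The submitters' processing notes name cutadapt, Bowtie2, SAMtools, Picard, MACS2, deepTools and the mouse build GRCm38, without versions. The deposited fold is a ratio of pileup to local background, as the authors' peak caller gave it. The deposited −log10 p-values and −log10 q-values, from the same caller, served only as alternatives. The deposited score, a rescaled −log10 q, and the summit offset were not used for ranking. The lists hold no read numbers, so depth is unknown, and 112939 to 135895 peaks per list set the precision.

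Peaks sharing at least 1 bp were merged (Python 3.11.15, pandas 2.3.3), and the highest fold per list was ranked among all its peaks. Normal scores of fold ranks over shared regions were fitted with limma 3.58.1 in R 4.3.3, all 8 samples in 1 fit, with Benjamini-Hochberg adjustment at 0.05. Scripts were tested on simulated data. Genes and promoters are RefSeq, GRCm38.p6. Regions away from start sites had no sequence here. Groups came from sample titles. Peak names number Ezh2-Y726D replicates 1 and 2 as 2 and 3. Members and gene lists were chosen with earlier results of these data known. Named regions were the 12 with the largest smaller gap, the 3 with the largest difference of Ezh2 and Ezh2-Y726D means, up to 3 per list by smaller gap, those of the 3 genes with most members, and 2 just inside and 2 outside the rule. Other list members, Kcnj10, Car2, Hes1, Gad1, Cabp5, Grik1, Rp1, Sag, Rom1 and the cholesterol and excitability genes among them, were named after their values were seen. Alternatives were other ranking values, base lists, q thresholds, overlaps, list lengths, distances, omitted samples, chromosome X and a replicate block.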

Additional observations from a re-analysis of the deposited data

How the results depend on the processing

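The number of stepped regions was 836 when folds replaced percentiles (an alternative chosen after seeing the data), 818 under a coverage rule (peaks spanning 0.5 or more of their region), and 1008 with lists of equal length. Leaving out each sample in turn gave 2126 to 2571, since fewer samples have to be in order. The share at gene ends was 35.6% within 3 kb, against 35.7% of shared regions and 39.4% of reverse-order regions. On the same shared regions, of which 26.4% lay within 1 kb, it was 18.3% on folds and 23.8% with percentiles among shared regions. It was 31.03% at a −log10 q of at least 5, 34.1% with the coverage rule, 22.8% with equal lists, and 24.9 to 28.5% without 1 sample. These last settings change the shared regions too, and the share over those was not computed. Leukocyte genes with a stepped region, 5 in the report, numbered 12 when ranked by −log10 p, 3 on folds, 3 with the q threshold, 2 with the coverage rule, 2 with equal lists and 5 to 8 without 1 sample. The held-out order was kept by 54.9% ranked by −log10 p, 46.9% with the coverage rule and 47.0% with equal lists. Of the 52 named stepped regions, 34 were still stepped by −log10 p, 37 among shared regions, 24 with the q threshold, 18 with the coverage rule and 21 with equal lists. The difference of Ezh2 and Ezh2-Y726D at Tbx3 reversed to −1.44 points by −log10 p. The cause of these changes was not tested.

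Over all shared regions, limma called Ezh2 higher than GFP in 1100, GFP higher than Ezh2-Y726D in 3206 and Ezh2 higher than Ezh2-Y726D in 4839. The replicate block by title numbers gave 723 in the first, and the block by peak-name numbers (chosen after seeing the data) 641 in the first and 1871 in the second. Same-numbered samples deviated together with correlations of −0.015 to 0.049, so the numbers were not taken to pair the samples. Ranking by −log10 p gave 4867 and the q threshold 2074 in the second. The coverage rule gave 289, 987 and 1835. Without 1 sample the counts were 265 (GFP replicate 2) to 904, 936 (Ezh2-Y726D replicate 1) to 3039, and 2208 (Ezh2-Y726D replicate 1) to 4684. Omitting any single GFP or Ezh2 sample lowered the first by over 1.5 times, omitting GFP replicate 1 or 2 or either Ezh2-Y726D sample the second, and either Ezh2-Y726D sample the third. With 1 Ezh2-Y726D sample left, it was assumed to vary like the other groups.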
